A study of Homo sapiens with 10 samples.

Results

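Cholesterol synthesis was followed here as 26 genes: the enzymes from the condensation of acetyl units to the last reductions of the sterol, the proteins that switch the pathway on and off, and 3 genes of cholesterol transport. The 26 genes were taken by symbol from a table of 60651 genes, all 26 were found, and all 26 passed the filter on low counts that left 22495 genes for testing. RNA came from cultured human cells after 48 hours of treatment, in 10 libraries of 5 groups with 2 libraries each. HT29, an established colorectal cancer cell line, received DMSO or 10 µM of VXN. The line t-hESC, described by the submitters as pluripotent stem cells that were transformed, received DMSO, 10 µM of VXN or 1 µM of BIX. DMSO is the solvent, the code name VXN stands unexplained in the labels, and compounds called BIX are known as inhibitors of G9a and GLP, a pair of histone methyltransferases. The series title places the work under drug control of histone H3 lysine 9 dimethylation. The treatment field reads DMSO for all 10 samples, so the compound and dose were taken from the sample titles. The series calls the 2 libraries of a group biological replicates, and no label says that they came from separate cultures, so p-values measure the spread between these libraries. That spread was small. Its chi-square per degree of freedom, near 1 for counting noise alone, ran from 1.18 in HT29 VXN to 1.78 in t-hESC VXN. The common coefficient of variation beyond counting noise was 0.021. Whether it covers the variation between separate cultures was not tested, so small changes that were called carry this limit. In bulk RNA a change in the mix of cells and a change in RNA per cell cannot be told apart.

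Cells make cholesterol from acetyl units through mevalonate, which is built up into farnesyl diphosphate. Squalene synthase then commits farnesyl diphosphate to sterols, and a chain of oxidations, demethylations and reductions leads from lanosterol to cholesterol. The pathway is controlled by the transcription factor SREBP2, encoded by SREBF2, which is held in the endoplasmic reticulum by SCAP and the INSIG proteins when sterol is plentiful. When sterol falls, SCAP carries SREBP2 to the Golgi, where proteases release the part that enters the nucleus and raises the transcription of the enzyme genes and of INSIG1. Tumour cells and fast-growing stem cells both draw on the pathway for membranes and for the lipid anchors of signalling proteins.

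Library sizes ran from 13137026 to 24492838 gene counts, so that 3 counts stood for 0.124 to 0.220 CPM, the usual unit of counts divided by the scaled library size. All 26 genes lay far above that floor in all 10 libraries, and the lowest group mean was that of HSD17B7 in HT29 under VXN, at 6.46 CPM. Taken as sums, the pluripotency and colorectal marker lists fitted the labels. The 7 pluripotency markers summed to 4306 to 4755 CPM in the 6 t-hESC libraries. In HT29 they summed to 4.23 to 4.33 CPM under DMSO and 8.13 to 11.4 CPM under VXN. Colorectal epithelial markers, 8 genes, summed to 114 to 127 CPM in t-hESC, and in HT29 to 1668 and 1686 CPM under DMSO and 1987 and 1995 CPM under VXN. Among them KRT20 went from 247 and 252 to 700.3 and 707 CPM, CEACAM5 from 5.36 and 5.72 to 48.3 and 47.8 CPM and VIL1 from 181 and 184 to 96.1 and 94.1 CPM. Not every gene of this list fitted. In HT29 under DMSO 6 of the 8 had a mean over 1 CPM. There CDH17 and CDX1 were at means of 0.272 and 0.336 CPM, and CDX2 was at 1.68 CPM. The sum of the 7 fibroblast markers moved with treatment in t-hESC, from 681 CPM under DMSO in both libraries to 803 and 844 under BIX and 948 and 950.1 under VXN. In HT29 it went from 3.29 and 4.29 CPM under DMSO to 7.55 and 9.75 under VXN. Endothelial markers, 4 genes, went from 97.7 and 103 CPM under DMSO to 152 and 160.3 under BIX and 150.2 and 160.2 under VXN. Leukocyte markers, 4 genes, stayed at or below 0.441 CPM in t-hESC and 3.72 CPM in HT29. Among these, THY1 was the fibroblast marker called higher and KDR the endothelial marker called higher under VXN in t-hESC, while 2 of the 7 fibroblast markers were at 0 in both VXN libraries. The t-hESC mean of THY1 went from 587 CPM under DMSO to 857 under VXN, and that of COL1A1 from 33.2 to 37.6. The means of COL1A2, PDGFRB and COL3A1 went down, from 41.3 to 39.1, 18.5 to 15.5 and 0.341 to 0.115 CPM. The part of other cell types in the cholesterol results was not tested.

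Under VXN the pathway rose along nearly its whole length in t-hESC. Of the 26 genes 22 were called higher and 1 lower against DMSO, 84.6 and 3.85% of them, where 14.5% of all 22495 genes were called higher and 14.6% were called lower. In either direction 88.5% of the 26 genes were called, against 29% of all genes. Calls are edgeR quasi-likelihood tests with a Benjamini-Hochberg adjusted p under 0.05 over all genes. The median log2 fold change of the 26 genes was 0.79, against 0.0036 over all genes. In 23 genes both VXN libraries lay above both DMSO libraries, and 7 of the 22 rises reached 2-fold. Under BIX 14 of the 26 genes lay above DMSO in this way and 6 below, though 16 were not called. No count of separated libraries or of 2-fold changes was made over all genes, here or below.

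The mevalonate arm opened with a clear step. HMGCS1, the synthase that makes HMG-CoA, was at 468 and 479 CPM in the DMSO libraries and 1303 and 1272 CPM in the VXN libraries. Its log2 fold change of 1.44 ± 0.030 (SE) ranked 339th from the top of 22495 genes, and no library of one group came near the other. ACAT2, the cytosolic thiolase that supplies acetoacetyl-CoA, went from 202 and 195 to 330.0 and 314 CPM. MVK, mevalonate kinase, went from 19.3 and 21.3 to 38.3 and 41.1 CPM, so that its 2 VXN libraries lay near 2 times the DMSO level. PMVK, the next kinase, did not follow. It was at 32.8 and 32.2 CPM under DMSO and 28.7 and 28.4 CPM under VXN, a log2 fold change of -0.18 ± 0.067 with an adjusted p of 0.0305 in edgeR, and this call was lost when any of the 4 libraries was left out (adjusted p from 0.0782 to 0.127), with no count filter (0.0508) and in DESeq2 (0.223). MVD, which makes isopentenyl diphosphate from the product of PMVK, went from 58.1 and 57.3 to 139 and 146 CPM, a log2 fold change of 1.31 ± 0.051. IDI1, the isomerase of that product, rose from 90.3 and 93.9 to 187 and 172 CPM.

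At the branch point FDPS and FDFT1 rose and GGPS1 was not called. FDPS, which makes farnesyl diphosphate, rose from 334 and 338 to 464 and 454 CPM, a log2 fold change of 0.45 ± 0.032. GGPS1, which extends farnesyl to geranylgeranyl diphosphate and so leads away from cholesterol, was at 40.3 and 38.2 CPM under DMSO and 42.9 and 42.5 CPM under VXN, with a log2 fold change of 0.12 ± 0.060 and an edgeR adjusted p of 0.127. FDFT1, squalene synthase, went from 670.4 and 685 to 1242 and 1247 CPM.

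All 11 genes of the sterol arm rose under VXN in t-hESC, at a median log2 fold change of 0.88. SQLE, the squalene epoxidase that is a slow step of this arm, went from 232 and 227 to 427 and 419 CPM. LSS, which closes the rings to lanosterol, moved less, from 150.1 and 153 to 208 and 211 CPM. CYP51A1, the lanosterol demethylase, went from 94.96 and 89.6 to 192 and 180.5 CPM, a log2 fold change of 1.01 ± 0.041. The 3 genes that remove the next pair of methyl groups rose by different amounts. MSMO1, the methyl oxidase, had the highest log2 fold change of the arm and went from 114 and 105 to 284 and 258 CPM, a log2 fold change of 1.31 ± 0.044. NSDHL, the decarboxylating dehydrogenase of the same complex, went from 49.6 and 49.5 to 81.1 and 78.3 CPM. HSD17B7, its keto reductase, went from 19.8 and 20.2 to 36.7 and 36.7 CPM. TM7SF2, a sterol reductase of the middle of the arm, had the lowest log2 fold change of the arm, with 59.7 and 61.04 CPM under DMSO and 71.3 and 72.9 CPM under VXN. The late enzymes EBP, an isomerase, SC5D, a desaturase, and DHCR7, which reduces the last precursor in one of the routes to cholesterol, all rose. EBP went from 67.5 and 65.3 to 109 and 108 CPM. SC5D went from 108 and 108 to 196 and 202 CPM. DHCR7 went from 162 and 161 to 349.6 and 359 CPM, a log2 fold change of 1.14 ± 0.035. In each of these genes both VXN libraries stood above both DMSO libraries.

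Among the regulators INSIG1 moved and its paralog INSIG2 did not pass the test. INSIG1 went from 91.2 and 85.7 to 239 and 240.1 CPM, a log2 fold change of 1.44 ± 0.039, beside 1.44 ± 0.030 for HMGCS1. INSIG2 was at 13.2 and 13.8 CPM under DMSO and 13.2 and 13.3 CPM under VXN, with groups that overlapped and an edgeR adjusted p of 0.885. SREBF2 itself rose by a small step, from 426 and 436 to 467 and 502 CPM, a log2 fold change of 0.17 ± 0.032. SCAP was at 141 and 135 CPM under DMSO and 128 and 132 CPM under VXN and was not called (edgeR adjusted p of 0.125). With upper-quartile factors it was called lower (log2 fold change of -0.11, adjusted p = 0.0387). The transport genes rose. STARD4, a soluble carrier of cholesterol between membranes, went from 61.3 and 57.1 to 124 and 126 CPM. NPC1 and NPC2, which together move cholesterol out of the lysosome, went from 35.9 and 36.3 to 53.6 and 55.9 CPM and from 80.4 and 79.03 to 101 and 101 CPM.

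**Figure D1:**
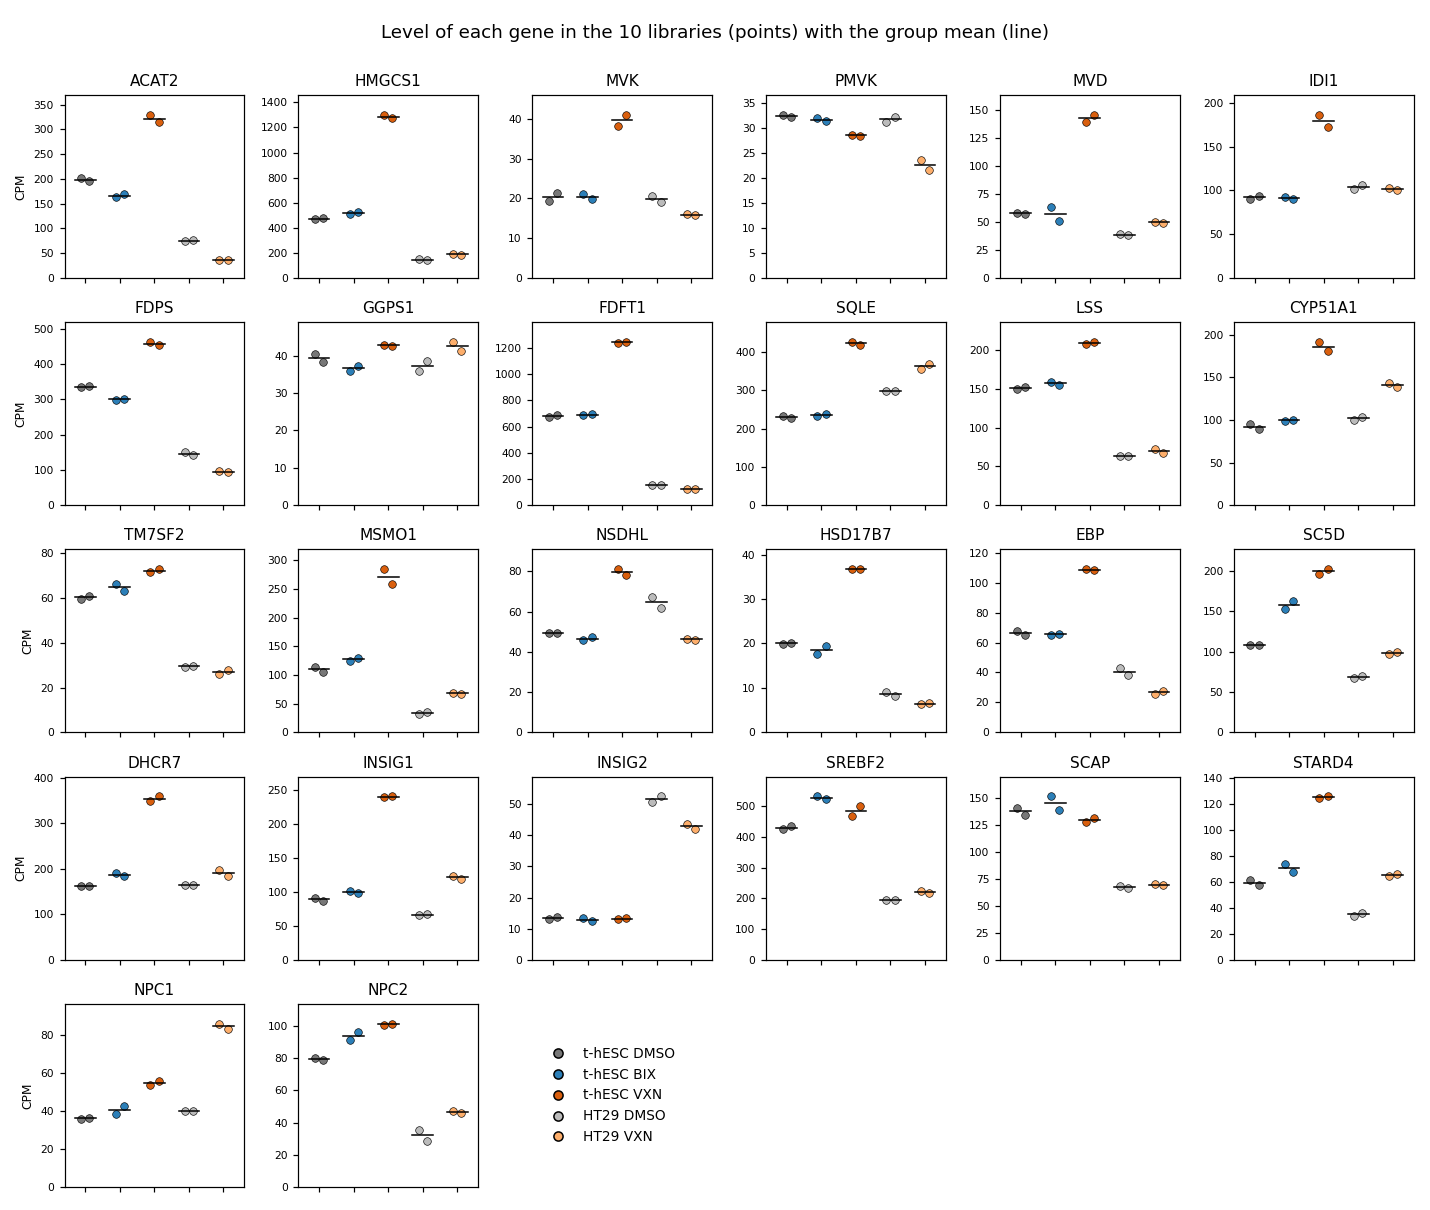
Level of each of the 26 genes in CPM (vertical axes from 0), with a point for each of the 10 libraries and a line for the mean of each group of 2. The orange t-hESC VXN points of HMGCS1 sit at 1303 and 1272 CPM above all other libraries, and those of INSIG2 at 13.2 and 13.3 CPM lie with the other t-hESC libraries.

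The authors' deposited table for VXN in t-hESC called 18 of the 26 genes higher and none lower. It did not call PMVK, GGPS1, TM7SF2, INSIG2, SREBF2, SCAP, STARD4 or NPC2. DESeq2 run here on the counts called 22 higher and 0 lower, as many rises as edgeR. Over all genes it called 1649 higher and 1921 lower of 16957. Calls over all genes in the authors' tables were not counted. The counts quoted from them, here and below, therefore stand without a background.

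Promoter sequences are shown for 6 of the 26 genes. SREBF2 is the regulator, INSIG1, HMGCS1, MVD and MSMO1 had the 4 highest log2 fold changes in t-hESC, and INSIG2 is the paralog that did not pass the test. RefSeq windows of 300 bases on GRCh38.p14, from 250 before the start of the transcript to 50 after it, matched 23 of the 26 genes, with 32 windows in all because some genes have several starts. The 220 bases before the start farthest upstream are printed 5′ to 3′ on the strand of the gene. Capitals mark CCAAT or its complement ATTGG, the box bound by the factor NF-Y, which is known to work beside SREBP2, and CACNCCAC or its complement, the core of a sterol regulatory element (N is any base).
SREBF2 (chr22:41832885-41833104, + strand): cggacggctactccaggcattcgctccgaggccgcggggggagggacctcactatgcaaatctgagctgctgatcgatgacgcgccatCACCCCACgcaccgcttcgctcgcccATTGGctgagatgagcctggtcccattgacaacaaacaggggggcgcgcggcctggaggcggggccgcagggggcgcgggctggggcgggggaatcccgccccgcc
INSIG1 (chr7:155297658-155297877, + strand): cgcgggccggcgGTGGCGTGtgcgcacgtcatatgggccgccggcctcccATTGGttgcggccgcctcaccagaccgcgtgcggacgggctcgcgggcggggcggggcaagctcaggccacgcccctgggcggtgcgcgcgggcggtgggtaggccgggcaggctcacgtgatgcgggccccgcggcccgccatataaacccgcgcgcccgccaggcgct
HMGCS1 (chr5:43313413-43313632, - strand): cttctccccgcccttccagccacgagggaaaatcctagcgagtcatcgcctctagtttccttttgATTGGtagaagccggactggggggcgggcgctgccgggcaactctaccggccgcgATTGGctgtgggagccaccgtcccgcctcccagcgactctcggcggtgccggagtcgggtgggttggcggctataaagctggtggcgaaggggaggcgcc
MVD (chr16:88663092-88663311, - strand): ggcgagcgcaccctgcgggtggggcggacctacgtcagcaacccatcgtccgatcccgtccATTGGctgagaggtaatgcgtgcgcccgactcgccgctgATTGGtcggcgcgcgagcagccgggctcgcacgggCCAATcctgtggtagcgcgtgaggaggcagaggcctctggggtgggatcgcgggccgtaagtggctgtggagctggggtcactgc
MSMO1 (chr4:165327449-165327668, + strand): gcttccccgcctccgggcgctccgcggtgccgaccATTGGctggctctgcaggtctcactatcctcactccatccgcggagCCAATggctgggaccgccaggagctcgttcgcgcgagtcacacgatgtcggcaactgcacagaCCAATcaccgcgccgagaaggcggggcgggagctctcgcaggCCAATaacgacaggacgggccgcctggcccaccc
INSIG2 (chr2:118088251-118088470, + strand): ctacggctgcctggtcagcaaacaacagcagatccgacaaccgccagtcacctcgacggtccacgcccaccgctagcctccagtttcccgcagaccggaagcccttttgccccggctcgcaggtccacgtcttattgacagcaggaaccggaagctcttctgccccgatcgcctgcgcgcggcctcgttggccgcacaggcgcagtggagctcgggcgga

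The main search was for TCACNCCAC, a common form of the sterol regulatory element, on either strand. It was found in 1 of the 23 genes, SREBF2, at position -133 from the start, and in 1.51% of the 13005 tested genes with a window. The shorter core CACNCCAC, which lies within that form, was found in 4 genes (SREBF2, INSIG1, IDI1 and SC5D), 17.4% of the 23, against 8.08% of tested genes. Over all RefSeq windows the shares were 1.13% for the long form and 5.87% for the core, against 3.12 and 15.6% of the members' 32 windows. CCAAT on either strand was searched after the data were seen. It stood in 18 of the 23 genes, 78.3%, against 42.4% of tested genes, and in 62.5% of the members' windows against 34.6% of all windows. Of the 19 genes with a window that were called higher under VXN in t-hESC 17 held CCAAT, all but CYP51A1 and NPC1. A gene was counted when any of its windows held the box. HMGCS1, DHCR7, NPC2 and IDI1 held it in some of their windows and lacked it in others. Of the 4 with a window that were not called higher 1 held it, GGPS1, in 1 of its 3 windows, while PMVK, INSIG2 and SCAP had none. Over all tested genes the share with CCAAT was 43.7% among those called higher and 42.2% among the others. MSMO1 and MVD, printed above, held 4 and 3 such boxes, and INSIG2 none. The GC box GGGCGG, also searched after the data were seen, stood in 22 of the 23 genes and in 73.2% of tested genes, and the median GC content of the members' windows was 67.7% against 64.3%. These matches describe letters in these windows, and no measurement of binding was made.

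**Figure D2:**
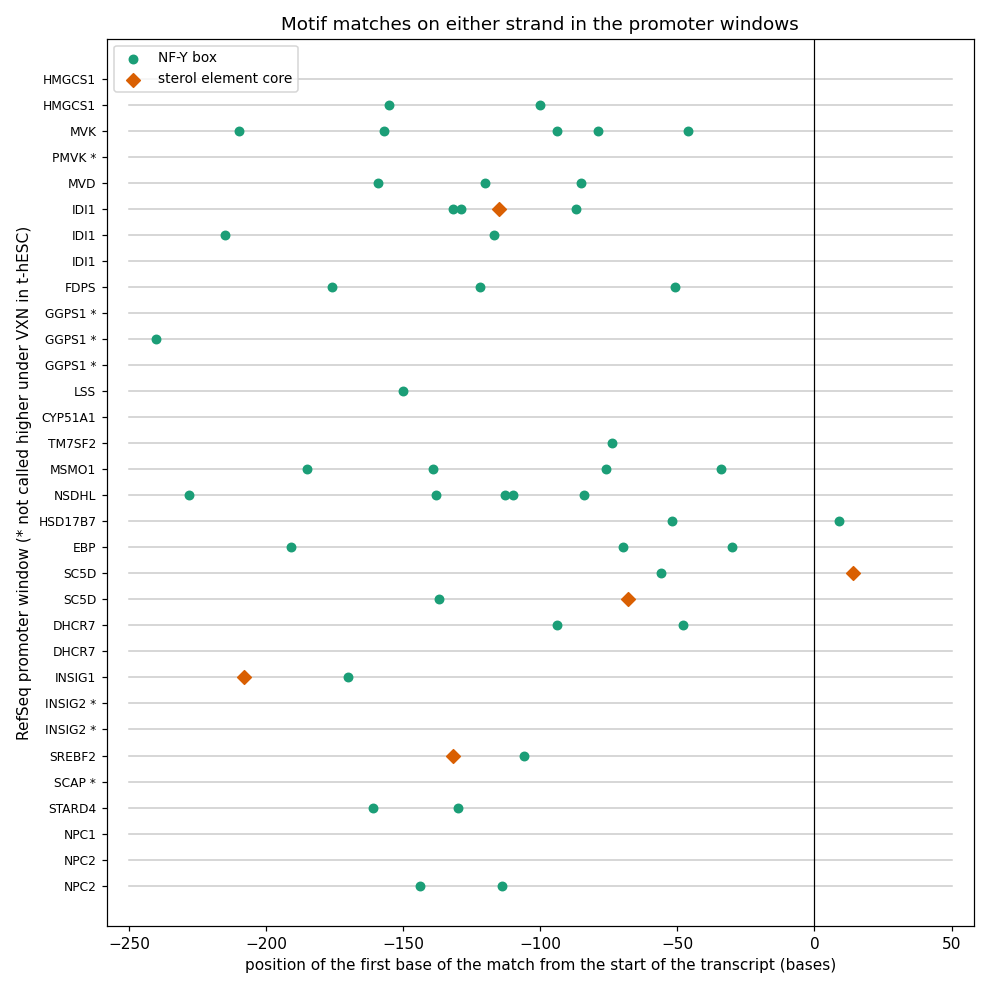
Position of matches to the NF-Y box (circles) and to the core of the sterol regulatory element (diamonds), in bases from the start of the transcript, in the 32 RefSeq windows of 23 genes, with genes not called higher under VXN in t-hESC starred. The 2 windows of INSIG2 and the single windows of PMVK and SCAP hold neither, and SREBF2, INSIG1, IDI1 and SC5D hold the sterol element core.

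In HT29 the same dose of VXN split the pathway. Of the 26 genes 14 were called higher and 9 lower, 53.8 and 34.6%, and 3 were not called. The background in this comparison was wide: 60.0% of all genes were called, 33.0% higher and 26.9% lower, and the share of the 26 genes called in either direction was 88.5%. When only the 2 HT29 groups were fitted, 6895 of 18696 genes were called higher and 6795 lower, and 11 of the 26 genes were called lower. The median log2 fold change of the 26 genes was 0.17, against 0.055 over all genes, and single genes ran from -1.06 to 1.09. The median over all genes was 0.0066 without HT29 VXN replicate 1, 0.0237 without HT29 VXN replicate 2 and 0.0083 with only the 2 HT29 groups, where that of the 26 genes was 0.12, 0.19 and 0.11.

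In the mevalonate arm 3 genes rose and 4 fell. ACAT2 fell by more than 2-fold, from 74.9 and 75.9 CPM in the DMSO libraries to 35.2 and 37.01 CPM in the VXN libraries, a log2 fold change of -1.06 ± 0.050. HMGCS1 rose from 148 and 145 to 192 and 184 CPM and MVD from 39.1 and 37.9 to 50.1 and 48.97 CPM. The kinase genes between them fell. MVK went from 20.6 and 19.1 to 16.01 and 15.8 CPM. PMVK went from 31.3 and 32.3 to 23.6 and 21.7 CPM. IDI1, at 102 and 106 CPM under DMSO and 102 and 100.4 CPM under VXN, was not called (edgeR adjusted p of 0.451), and it was called lower when only the 2 HT29 groups were fitted (log2 fold change of -0.094, adjusted p = 0.00955). FDPS fell from 151 and 142 to 95.6 and 93.5 CPM. GGPS1 rose from 35.9 and 38.4 to 43.7 and 41.3 CPM, a call lost without HT29 DMSO replicate 1 (adjusted p = 0.079), without HT29 VXN replicate 1 (0.0954) and in DESeq2 (0.173).

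The sterol arm divided too, with 6 genes higher and 4 lower. MSMO1 rose most, from 31.5 and 35.5 to 69.2 and 66.4 CPM, a log2 fold change of 1.02 ± 0.059. SC5D went from 66.8 and 69.2 to 97.4 and 99.9 CPM and CYP51A1 from 100.3 and 104 to 143 and 139 CPM. SQLE and DHCR7 rose by smaller steps, from 298 and 299 to 357 and 369 CPM and from 165 and 165 to 198 and 185 CPM. LSS rose from 62.8 and 63.6 to 72.7 and 67.7 CPM, a call lost without HT29 VXN replicate 1 (log2 fold change of 0.090, adjusted p = 0.198) and in DESeq2 (0.109). Against these, EBP fell from 42.7 and 38.00 to 25.9 and 27.6 CPM and NSDHL from 67.3 and 61.8 to 46.6 and 45.7 CPM. HSD17B7 fell from 9.19 and 8.11 to 6.39 and 6.54 CPM, and FDFT1 from 153 and 151 to 122 and 124 CPM. So MSMO1 and its partners NSDHL and HSD17B7, which act on the same methyl groups, moved in opposite directions. TM7SF2, at 29.3 and 29.6 CPM under DMSO and 26.1 and 27.7 CPM under VXN, was not called (edgeR adjusted p of 0.0625), and was called lower under 7 of the alternatives, among them size factors of the DESeq2 type (log2 fold change of -0.17, adjusted p = 0.0161).

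INSIG1 rose in HT29 from 65.1 and 67.5 to 123 and 119 CPM, a log2 fold change of 0.87 ± 0.042. INSIG2 fell there, from 50.6 and 52.6 to 43.8 and 42.1 CPM. SREBF2 rose from 194 and 193 to 222 and 217 CPM, and SCAP, at 67.8 and 66.4 and 70.1 and 69.1 CPM, was not called. All 3 transport genes rose. NPC1 had the highest log2 fold change of the 26 genes in HT29, 1.09 ± 0.050, from 39.97 and 39.8 to 86.2 and 83.3 CPM. STARD4 went from 33.8 and 36.1 to 63.98 and 65.6 CPM, and NPC2 from 35.2 and 28.8 to 47.2 and 46.1 CPM. The authors' deposited table for this comparison called 6 of the 26 genes higher (HMGCS1, MSMO1, SC5D, INSIG1, NPC1 and NPC2) and 9 lower. Its calls over all genes were not counted.

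**Figure D3:**
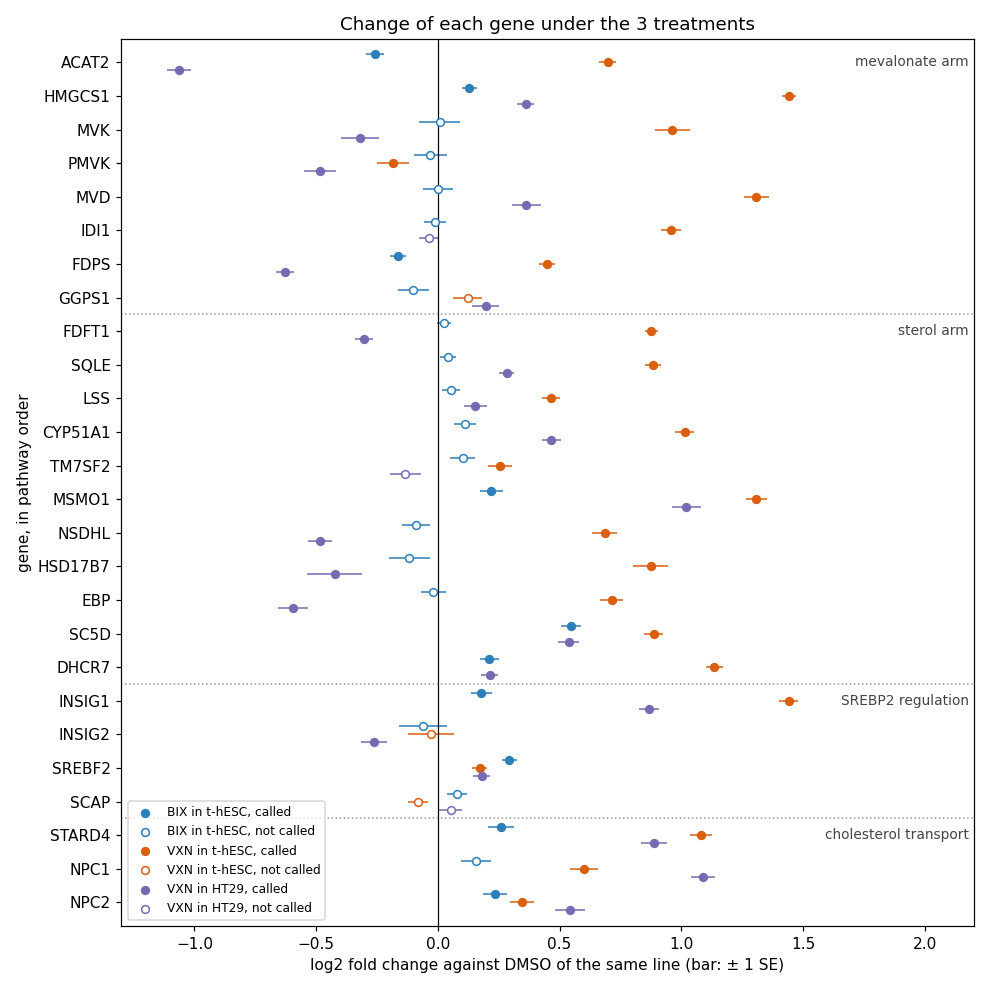
Log2 fold change of each gene against DMSO of the same line, with bars of 1 SE from the edgeR fit, in pathway order and divided by role; filled points are called and open points are not. Under VXN in t-hESC (orange) 22 genes lie to the right of 0 and are called, while in HT29 (purple) the genes run from -1.06 for ACAT2 to 1.09 for NPC1.

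Whether VXN acted differently in the lines was tested directly, as the HT29 log2 fold change minus that of t-hESC. This difference was called in 22 of the 26 genes, 20 with the smaller value in HT29 and 2 with the larger. That is 76.9% of the 26 genes with the smaller value in HT29, where 20.3% of all genes were called so and 43.2% were called in either direction. The median difference was -0.56, against 0.054 over all genes. The lowest was that of ACAT2, -1.76 ± 0.061 (SE), and 8 of the called differences reached 2-fold. NPC1 and NPC2 were the 2 genes with the larger effect in HT29, at 0.49 ± 0.077 and 0.20 ± 0.078. The call of NPC2 was lost under 8 of the alternatives, with a difference of 0.061 and an adjusted p of 0.624 without HT29 DMSO replicate 2. PMVK, at -0.30 ± 0.094, was not called without HT29 VXN replicate 2 (adjusted p = 0.0621) or in DESeq2 (0.0549), and MSMO1, at -0.29 ± 0.075, was not called without HT29 DMSO replicate 2 (adjusted p = 0.0553). STARD4, at -0.19 ± 0.071, lost its call under 4, with a difference of -0.14 and an adjusted p of 0.197 without t-hESC DMSO replicate 2. SREBF2, SCAP, GGPS1 and INSIG2 were not called, with differences of 0.0079 ± 0.047, 0.14 ± 0.062, 0.073 ± 0.083 and -0.24 ± 0.11 (SE). SCAP was called with upper-quartile factors (adjusted p = 0.0311), with a minimum count of 50 (0.0396) and without t-hESC DMSO replicate 2 (0.046), and INSIG2 with size factors of the DESeq2 type (0.0346).

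Sorted by call, 13 genes rose under VXN in both lines and 7 rose in t-hESC and fell in HT29. The 7 were ACAT2, MVK, FDPS, FDFT1, NSDHL, HSD17B7 and EBP, which lie at 4 steps from acetyl units to squalene and 3 steps after lanosterol. The difference was called in each of the 7, from -1.08 ± 0.050 for FDPS to -1.76 ± 0.061 for ACAT2. IDI1 and TM7SF2 rose in t-hESC and were not called in HT29, PMVK fell in both lines, and SCAP was not called in either. Across the 26 genes the effects in the 2 lines had a Pearson's r of 0.384 and a Spearman's rho of 0.451. The genes share the 8 libraries behind these values and are not independent points.

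**Figure D4:**
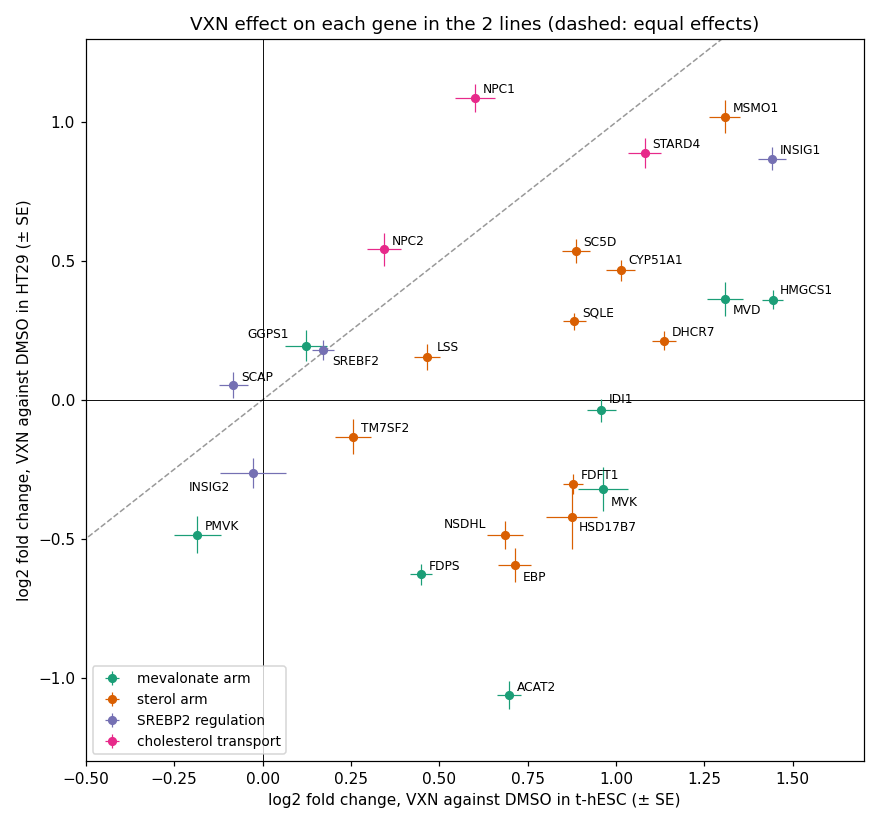
Log2 fold change under VXN in HT29 (vertical axis) against that in t-hESC (horizontal axis) for the 26 genes, coloured by role, with bars of 1 SE; on the dashed line both effects are equal. The 7 genes at lower right rose in t-hESC and fell in HT29, and NPC1 and NPC2 are the 2 genes above the line whose difference was called.

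Under BIX at 1 µM 10 of the 26 genes were called in t-hESC, 38.5% against 23.1% of all genes, and 16 were not. Of the 26 genes 8 were called higher and 2 lower, 30.8 and 7.69%, beside 10.9 and 12.2% of all genes, and no change reached 2-fold. The median log2 fold change was 0.048, against 0.0015 over all genes, and the median of the 26 genes was 0.035 without t-hESC BIX replicate 1 and 0.073 without t-hESC BIX replicate 2. SC5D stood out, with 108 and 108 CPM under DMSO and 153 and 163 CPM under BIX, a log2 fold change of 0.55 ± 0.041. SREBF2 followed, from 426 and 436 to 532 and 523 CPM, at 0.29 ± 0.032. STARD4 went from 61.3 and 57.1 to 73.4 and 67.7 CPM and NPC2 from 80.4 and 79.03 to 91.4 and 96.4 CPM. The other rises were those of DHCR7 at 0.21 ± 0.038, MSMO1 at 0.22 ± 0.049, INSIG1 at 0.18 ± 0.045 and HMGCS1 at 0.13 ± 0.031. MSMO1 and INSIG1 were not called without t-hESC DMSO replicate 2 (adjusted p = 0.061 and 0.137). ACAT2 fell from 202 and 195 to 163 and 169 CPM and FDPS from 334 and 338 to 299 and 302 CPM. The other 16 genes were not called, and their log2 fold changes ran from -0.12 for HSD17B7 to 0.16 for NPC1. NPC1 and CYP51A1 were called higher with size factors of the DESeq2 type (adjusted p = 0.0412 and 0.0374) and with a minimum count of 50, NPC1 also without t-hESC BIX replicate 1 (0.0223), and SCAP without t-hESC BIX replicate 2 (0.0276). In the authors' deposited table SC5D was the one member called under BIX.

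The VXN and BIX groups were also set against each other, at doses of 10 and 1 µM that differ, so that compound and dose cannot be told apart. Both were compared with the same 2 DMSO libraries. Of the 26 genes 21 were higher under VXN and 2 lower, 80.8 and 7.69%, where 11.6 and 11.2% of all genes were, at a median difference of 0.80. HMGCS1 was at 1303 and 1272 CPM under VXN and 513 and 523 under BIX, and MVD at 139 and 146 and 63.6 and 51.1, where the BIX libraries lay apart. SREBF2 ran the other way, with 467 and 502 CPM under VXN and 532 and 523 CPM under BIX, a difference of -0.12 ± 0.032 that lost its call without t-hESC VXN replicate 1 (-0.071, adjusted p = 0.156). SCAP was lower under VXN by 0.16 ± 0.042, a call lost without t-hESC BIX replicate 1 (adjusted p = 0.208). So the gene of the regulator was higher under BIX while 21 other genes of the pathway were higher under VXN. SC5D, the leading gene under BIX, was at 196 and 202 CPM under VXN and 153 and 163 under BIX. GGPS1 and TM7SF2, among the 21, were not called in DESeq2 (adjusted p = 0.11 and 0.218), GGPS1 also without t-hESC BIX replicate 1 (0.089), and TM7SF2 also without t-hESC BIX replicate 2 (0.18) or t-hESC VXN replicate 2 (0.107). PMVK, INSIG2 and NPC2 were not called.

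Under DMSO the lines held the pathway at different levels. HT29 was lower in 16 of the 26 genes and higher in 6, 61.5 and 23.1%, where 45.6% of all genes were lower and 38.9% higher. In either direction 84.6% of the 26 genes were called, near the 84.4% of all genes, and 12 differences reached 2-fold. The median difference, HT29 minus t-hESC, was -0.69 for the 26 genes and -0.12 over all genes. The median over all genes moved to -0.233 with upper-quartile factors, under which 3 genes were higher and 19 lower. FDFT1 differed most, with 153 and 151 CPM in HT29 and 670.4 and 685 CPM in t-hESC, a log2 difference of -2.16 ± 0.032. MSMO1 was at 31.5 and 35.5 and 114 and 105 CPM, and HMGCS1 at 148 and 145 and 468 and 479 CPM. INSIG2 had the highest difference toward HT29, with 50.6 and 52.6 CPM in HT29 and 13.2 and 13.8 CPM in t-hESC, a log2 difference of 1.93 ± 0.069. SQLE and NSDHL were higher in HT29 by 0.38 ± 0.032 and 0.38 ± 0.051. IDI1, CYP51A1 and NPC1 were higher by 0.17, 0.15 and 0.14, and with upper-quartile factors none of these 3 was called (adjusted p = 0.163, 0.426 and 0.605). The call of CYP51A1 was also lost without t-hESC DMSO replicate 2 (0.131), and that of NPC1 in each of the 4 fits that left out a DMSO library. MVK, PMVK, GGPS1 and DHCR7 were not called, and with upper-quartile factors PMVK, GGPS1 and DHCR7 were called lower. Under VXN the authors' deposited table called 22 of the 26 genes lower in HT29 than in t-hESC and 2 higher, INSIG2 and NPC1. The calls of that table over all genes were not counted.

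**Figure D5:**
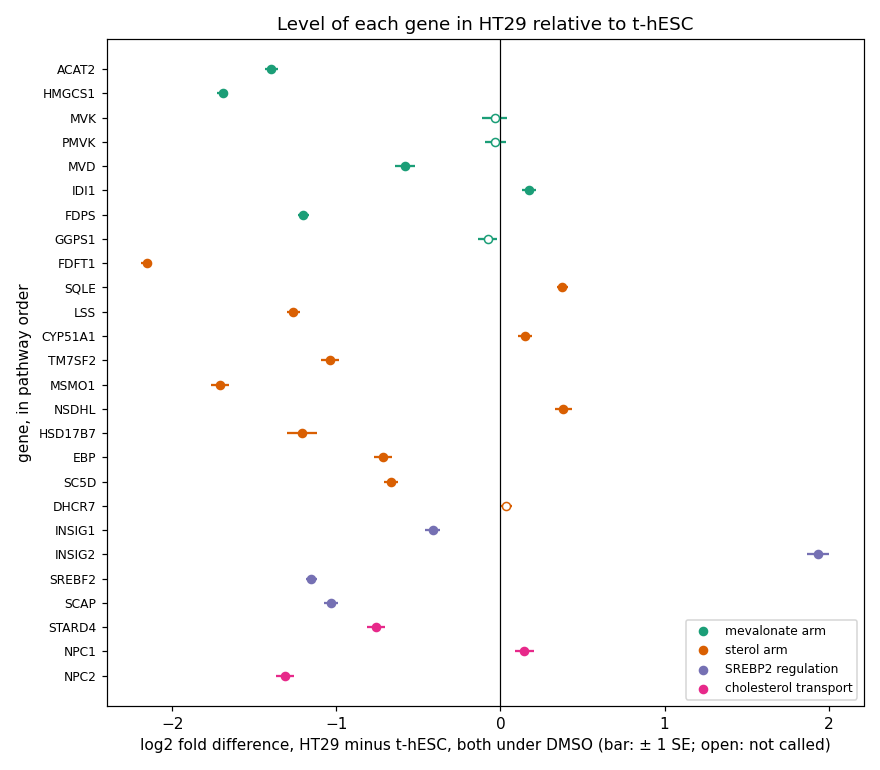
Log2 difference in level between HT29 and t-hESC under DMSO for each gene in pathway order, with bars of 1 SE; open points are not called. FDFT1 lies lowest at -2.16 and INSIG2 highest at 1.93.

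Genes around the pathway moved less evenly in t-hESC. Of 10 genes of SREBP processing and sterol sensing 2 rose under VXN in t-hESC and 4 fell, 20 and 40%, beside 14.5 and 14.6% of all genes. TMEM97, a sterol-responsive membrane protein that binds NPC1, rose from 124 and 121 to 198 and 197 CPM, while in HT29 it fell from 108 and 110.2 to 47.3 and 46.6 CPM. That difference between the lines, -1.91 ± 0.058, was close to that of ACAT2. SREBF1, the gene of the related factor that favours fatty acid synthesis, fell in t-hESC by 0.31 ± 0.047 and rose in HT29 by 0.27 ± 0.037. MBTPS1, the Golgi protease that makes the opening cut in SREBP, did the same, by 0.18 ± 0.045 and 0.22 ± 0.036, and ERLIN2, which takes part in the sterol-driven breakdown of proteins in the endoplasmic reticulum, fell in t-hESC by 0.22 ± 0.046. In HT29 6 of the 10 rose and 1 fell, 60 and 10%, beside 33.0 and 26.9% of all genes. Under BIX 2 of the 10 fell and none rose, beside 12.2 and 10.9% of all genes.

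Of 10 genes on the branches that leave the mevalonate pathway 1 rose and 1 fell under VXN in t-hESC, 10 and 10%, below the 14.5 and 14.6% of all genes, and FNTB, a subunit of the farnesyl transferase, was the one that fell, by 0.33 ± 0.086. In HT29 4 rose and 4 fell, 40 and 40%, beside 33.0 and 26.9% of all genes. The ubiquinone genes COQ2 and PDSS1 went from 29.4 and 27.8 to 10.2 and 11.4 CPM and from 13.8 and 13.9 to 5.95 and 4.82 CPM. DHDDS, of dolichol synthesis, and RABGGTB, a subunit of the transferase that puts geranylgeranyl on Rab proteins, rose by 0.89 ± 0.053 and 1.03 ± 0.045. Of 7 genes of the LXR pathway, which answers to excess sterol, 1 rose and 3 fell under VXN in t-hESC, 14.3 and 42.9% beside 14.5 and 14.6% of all genes. In HT29 3 rose and 2 fell, 42.9 and 28.6%, near the 33.0 and 26.9% of all genes. ABCA1, the exporter of cholesterol, fell in both lines, from 14.5 and 15.3 to 5.20 and 6.60 CPM in t-hESC and from 6.88 and 8.37 to 2.89 and 3.30 CPM in HT29, and so did LPCAT3, which remodels membrane phospholipids, by 0.42 ± 0.061 and 0.35 ± 0.053. ABCG1, another exporter, fell from 3.46 and 3.53 to 1.08 and 2.14 CPM in t-hESC and rose from 10.8 and 12.4 to 40.1 and 41.1 CPM in HT29.

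Neighbours on the genome may bear on some counts, since the library kit does not mark strand. Another protein-coding gene overlaps 6 of the 26 genes in the RefSeq annotation, and 3 of them are described here. NPC1 (chromosome 18, 23506184 to 23586506, GRCh38.p14) overlaps RMC1 over 25639 bases, and RMC1 had log2 fold changes of 0.58 ± 0.085 under VXN in t-hESC and 0.55 ± 0.069 (SE) in HT29. ACAT2 (chromosome 6, 159762045 to 159779112) overlaps TCP1 over 615 bases, and TCP1 had -0.19 ± 0.032 in t-hESC and -0.53 ± 0.034 (SE) in HT29. MVK (chromosome 12, 109573272 to 109598125) overlaps MMAB over 233 bases, and MMAB had 0.35 ± 0.057 and -0.13 ± 0.058 (SE). Named pseudogenes number 10 for FDPS, 3 for IDI1, 3 for CYP51A1 and 2 for HSD17B7. No source used here says how reads shared with these copies or neighbours were counted, so the values of these genes carry that uncertainty.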

How the data were processed

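RNA-seq of total RNA was deposited as 1 table of raw counts per gene, which the authors made from 10 libraries used here, and 4 further columns of the table were not used. Per the submitters' processing notes, fastp 0.20.1, FastQC 0.11.9, STAR and DESeq2 1.34.0 were used on GRCh38; no source used here names the counting program. The authors also deposited tables of log2 fold changes with adjusted p-values, quoted here only by name. Rows for 1181 repeat families were left out. Counts were analysed with edgeR 4.0.16 in R 4.3.3: TMM scaling, a minimum count of 10, 1 mean per group over all 10 libraries, robust quasi-likelihood F tests, and Benjamini-Hochberg adjustment over 22495 genes at 0.05. Levels are CPM (edgeR's cpm function) after TMM scaling. The scripts were tested on counts simulated with the spread estimated from these libraries, which cannot show how calls would hold across separate cultures. Alternatives were other scalings, other filters, DESeq2 1.42.0, a block on the replicate number, fits without the groups outside a comparison, and each library left out. The members and gene lists were chosen with earlier results of these data known. All members are named, and of each further list up to 4 genes with the smallest p in a comparison, except that 1 such result is not reported here. Promoter windows are from RefSeq. No exon lengths were used, so levels are not compared between genes.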

Additional observations from a re-analysis of the deposited data

Results flagged for a closer look

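The VXN effect differed between HT29 and t-hESC in 30 of the genes named, each by an edgeR test of the difference itself with an adjusted p under 0.05, given here as the HT29 log2 fold change minus that of t-hESC. In the mevalonate arm the difference was -1.76 for ACAT2, -1.08 for HMGCS1, -1.28 for MVK, -0.30 for PMVK, -0.94 for MVD, -0.997 for IDI1 and -1.08 for FDPS. In the sterol arm it was -1.18 for FDFT1, -0.60 for SQLE, -0.31 for LSS, -0.55 for CYP51A1, -0.39 for TM7SF2, -0.29 for MSMO1, -1.17 for NSDHL, -1.297 for HSD17B7, -1.31 for EBP, -0.35 for SC5D and -0.92 for DHCR7. Among regulators and transport genes it was -0.57 for INSIG1, -0.19 for STARD4, 0.49 for NPC1 and 0.20 for NPC2. Outside the 26 genes it was 0.58 for SREBF1, 0.40 for MBTPS1, -1.91 for TMEM97, -1.17 for PDSS1, -1.29 for COQ2, 0.99 for DHDDS, 0.94 for RABGGTB and 2.91 for ABCG1. Over all genes tested 43.2% were called in this comparison.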

How the results depend on the processing

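Of 2652 values of single genes under an alternative, 2560 kept their direction and their side of the threshold, 47 kept the direction and lost the call, 21 gained a call and 24 changed sign. Counts of genes called moved by over 1.5 times as follows. Under VXN in t-hESC the 1 gene called lower became 2 with upper-quartile factors, 0 with no count filter and 0 in DESeq2. Differences larger in HT29 went from 2 to 1 with DESeq2-type size factors, with no filter and in DESeq2. Genes higher in HT29 under DMSO went from 6 to 3 with upper-quartile factors. Smaller moves were BIX higher from 8 to 10 (DESeq2-type size factors, minimum count of 50), VXN in HT29 higher from 14 to 12 (DESeq2) and lower from 9 to 10 (DESeq2-type size factors, no filter) or 11 (only the groups compared), VXN against BIX higher from 21 to 20 (upper-quartile factors, only the groups compared) or 19 (DESeq2), differences smaller in HT29 from 20 to 21 (DESeq2-type size factors) or 18 (DESeq2) and larger from 2 to 3 (upper-quartile factors, minimum count of 50), and under DMSO genes higher in HT29 from 6 to 5 (minimum count of 50, DESeq2) and lower from 16 to 19 (upper-quartile factors). The shorter core motif matched 4 genes, not 1. With a library left out, genes higher and lower ranged over 6 to 9 and 2 to 2 for BIX, 22 to 22 and 0 to 1 for VXN in t-hESC, 12 to 14 and 9 to 10 for VXN in HT29, 20 to 21 and 1 to 2 for VXN against BIX, 1 to 3 and 18 to 20 for the difference between lines, and 4 to 6 and 16 to 16 for the lines under DMSO. Leaving out 1 library of a pair assumes that the lone sample varies like the other groups. With the replicate number as a block the counts were as without it. They were, in the same order, 8 and 2, 22 and 1, 14 and 9, 21 and 2, 2 and 20, and 6 and 16. Over all tested genes, the deviations of same-numbered libraries had correlations of -0.0318 to 0.0263 between groups. Such a correlation can miss a batch that touches only some genes, and whether same-numbered libraries shared one was not tested further. Under BIX, IDI1 was 0.001625 with DESeq2-type size factors and 0.006501 without t-hESC DMSO replicate 2 (lowest with a library left out -0.04389). MVK was -0.007133 with no filter, -0.0464 without t-hESC BIX replicate 1 and -0.0637 without t-hESC DMSO replicate 1 (highest 0.07532). MVD was -0.0139 with no filter, -0.0006773 with the replicate block, -0.003436 and -0.003089 without HT29 VXN replicates 1 and 2, -0.1733 without t-hESC BIX replicate 1 and -0.0206 without t-hESC DMSO replicate 2 (highest 0.1371). EBP was 0.0003455 without t-hESC DMSO replicate 1 (lowest -0.05397). SCAP in HT29 was -0.003631 with only the groups compared, and INSIG2 in VXN against BIX was -0.02332 without t-hESC BIX replicate 2 (highest 0.1037). The SREBF2 difference was -0.03146 with DESeq2-type size factors, -0.02224 with no filter, -0.03373 in DESeq2, and -0.01601, -0.006669 and -0.04734 without HT29 VXN replicate 1, t-hESC DMSO replicate 2 and t-hESC VXN replicate 1 (highest 0.0569). Between lines under DMSO, DHCR7 was -0.07971 with upper-quartile factors (adjusted p = 0.0373) and -0.007329 with a minimum count of 50, and MVK was 0.01635 and 0.02533 without HT29 DMSO replicate 2 and t-hESC DMSO replicate 2 (lowest -0.09238). The cause was not tested. With 2 libraries a group, small changes rest on a spread shared across genes.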
